A study of Mus musculus with 24 samples.

Results

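The genes described here are 10 core components and direct outputs of the mammalian circadian clock, Per1, Per2, Per3, Arntl (also called Bmal1), Clock, Cry1, Cry2, Nr1d1, Nr1d2 and Dbp. They were taken by name from the RNA table of 23845 genes and from the table of ribosome-protected fragments (RPFs) of 20436 genes. All 10 were in both tables, and all 10 had enough reads to be tested among 14516 genes in RNA and 12877 genes in RPFs. The comparison asked whether these genes differed between the study's 4 groups, or between its replicate numbers, as they might if slices had been cut at different times of day. The hour of dissection was not given in the sources used here.

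The libraries came from hippocampal slices of male littermates aged 28 to 42 days, kept on a 12 h light-dark cycle. WT mice were compared with Tsc2+/- mice, which carry a germline deletion of 1 Tsc2 allele made by crossing Tsc2flox to CMV-Cre on a C57BL/6J background. Slices had CA3 cut away and recovered for hours in warmed artificial cerebrospinal fluid (ACSF). They then received either ACSF alone (vehicle) or 100 µM DHPG, which activates group I metabotropic glutamate receptors, for 5 min. Slices of several mice were pooled in each library, and each lysate gave both an RNA and an RPF library. Each assay had 12 libraries, 3 in each of the 4 groups, with replicate numbers 1, 2 and 3 in every group. The study counted each pool as a biological replicate, so p-values measure the spread between pools and not between single mice.

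The clock is a delayed feedback loop of transcription. The proteins of Arntl and Clock form a dimer that binds E-box motifs and activates the Per and Cry genes, whose proteins then return to the nucleus and block that dimer. In a further loop the nuclear receptors encoded by Nr1d1 and Nr1d2 (REV-ERBα and REV-ERBβ) repress Arntl, and Dbp, itself driven through E-boxes, activates genes that hold a D-box, among them the Per genes. Outside the suprachiasmatic nucleus the same loop runs in most tissues, the hippocampus included, so that Dbp, Nr1d1 and Per transcripts rise and fall over the day in opposite phase to Arntl. Per1 and Per2 are in addition induced by neuronal activity through CREB and by glucocorticoids.

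Motifs that the loop uses were counted in the promoters of these genes, as a description with no test. Windows of 300 bases, most of each lying before the annotated start site, were taken from RefSeq on GRCm38.p6, the assembly of the mm10 build that the authors used. Of the 10 genes, 9 matched with 13 windows. Per2 had no window, so its promoter was not searched. Both strands were searched for the E-box CACGTG, its variant CACGTT, the D-box TTANGTAA and AGGTCA, the core to which ROR and REV-ERB receptors bind; no match overlapped another. The E-box was present in 2 of these 13 windows (Per1 and Cry1) and in 7.15% of all 32851 windows of this length. CACGTT was present in 3 of the 13 (Cry1, Cry2 and Nr1d1) and in 4.68% of all windows. The D-box was found in 1 of the 13 (Per3) and in 2.32% of all windows. AGGTCA was found in 4 of the 13 (Arntl, Clock, Nr1d2 and Per1) and in 16.3% of all windows. The windows of 4 genes are printed 5′ to 3′ on the gene's strand because they hold E-box or D-box letters and belong to the genes on which the comparisons turn or to the low and high ends of the expression range. Capitals mark the motifs, and AACGTG and TGACCT are CACGTT and AGGTCA read from the other strand. Counted from the start site, CACGTG began at -166 and TGACCT at -137 in Per1, AACGTG at -79 and CACGTG at -60 in Cry1, TTATGTAA at -205 and -158 in Per3, and AACGTG at -28 in Nr1d1.
Per1, chr11:69098699-69098998, plus strand: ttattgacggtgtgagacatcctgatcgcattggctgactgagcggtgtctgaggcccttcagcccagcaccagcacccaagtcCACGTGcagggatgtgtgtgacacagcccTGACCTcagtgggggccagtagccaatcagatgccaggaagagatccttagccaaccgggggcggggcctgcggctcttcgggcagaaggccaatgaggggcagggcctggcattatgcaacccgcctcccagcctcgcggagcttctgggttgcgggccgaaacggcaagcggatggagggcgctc
Cry1, chr10:85185005-85185304, minus strand: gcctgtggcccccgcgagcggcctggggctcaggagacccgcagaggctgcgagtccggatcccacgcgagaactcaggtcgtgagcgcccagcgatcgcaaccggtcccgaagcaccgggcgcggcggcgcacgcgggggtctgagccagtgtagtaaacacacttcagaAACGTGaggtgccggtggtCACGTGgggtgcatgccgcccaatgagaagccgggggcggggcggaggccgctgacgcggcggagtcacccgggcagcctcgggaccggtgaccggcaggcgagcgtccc
Per3, chr4:151044616-151044915, minus strand: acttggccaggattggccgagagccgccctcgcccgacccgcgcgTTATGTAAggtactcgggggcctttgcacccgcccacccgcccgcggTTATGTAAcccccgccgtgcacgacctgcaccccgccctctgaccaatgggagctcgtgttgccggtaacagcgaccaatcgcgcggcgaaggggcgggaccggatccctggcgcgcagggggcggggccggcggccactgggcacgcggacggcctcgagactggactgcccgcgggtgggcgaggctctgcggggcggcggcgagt
Nr1d1, chr11:98775328-98775627, minus strand: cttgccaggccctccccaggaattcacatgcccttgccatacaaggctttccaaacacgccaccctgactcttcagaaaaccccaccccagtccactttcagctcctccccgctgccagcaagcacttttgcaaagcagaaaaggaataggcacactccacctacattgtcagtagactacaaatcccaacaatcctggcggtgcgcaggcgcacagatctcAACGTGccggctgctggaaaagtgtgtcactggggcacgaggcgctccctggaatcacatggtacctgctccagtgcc

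Total counts ran from 14801679 to 24067838 in RNA libraries and from 5296006 to 13613673 in RPF libraries, and the clock genes were covered by 177 to 5622 counts in RNA and 30 to 3879 in RPFs. The biological coefficient of variation over all genes was 7.01% in RNA and 7.04% in RPFs. Tsc2 RNA lay at 186 to 214 CPM (counts scaled to library size) in WT and at 128 to 137 CPM in Tsc2+/- libraries, so every library matched its genotype label. Summed markers of CA1 pyramidal cells lay at 1630 to 1800 CPM and those of CA3 at 78.3 to 103 CPM in RNA. In RPF libraries of replicate numbers 2 and 3, 97.9% to 98.5% of non-zero counts were even numbers, against 48.2% to 49% in those of replicate number 1. A difference in RPFs between number 1 and the others cannot be told apart from a difference in how the counts were made. In bulk tissue, fewer cells of a type and less RNA per cell cannot be told apart either.

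Expression per length spread widely over the loop, with Nr1d1 at the top and Per3 at the bottom in both assays. In the 3 WT vehicle libraries, Nr1d1 RNA was at 79.6 ± 5.73 CPM per kb of transcript (SD, n = 3), followed by Cry2 at 40.4 ± 3.33, Dbp at 32.9 ± 2.96 and Per1 at 24.9 ± 3.02. Nr1d2 (16.4 ± 1.19, percentile 69.1) and Arntl (12.8 ± 0.418, percentile 62.2) lay above the median of all genes, which was 8.19 CPM per kb over 11987 genes. Clock (9.01 ± 1.11, percentile 52.9) and Per2 (7.26 ± 1.29, percentile 46.7) lay near that median. Cry1 (4.09 ± 0.132) and Per3 (2.57 ± 0.395) were the lowest. Neighbours in this order did not overlap in their 3 libraries except Clock (7.97 to 10.2) and Per2 (5.89 to 8.45).

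The RPF order per kb of coding sequence was close to that of RNA, with Nr1d1 at 162 ± 12, Cry2 at 66.8 ± 5.72, Dbp at 49.8 ± 10.7 and Nr1d2, now ahead of Per1, at 40.4 ± 4.14 CPM per kb (SD, n = 3). Per1 followed at 31.5 ± 3.67, Arntl at 22.1 ± 1.32, Clock at 13.6 ± 2.37, Per2 at 12.9 ± 1.6, Cry1 at 9.15 ± 1.22 and Per3 at 1.79 ± 0.155. Dbp and Nr1d2 overlapped in range, as did Clock and Per2, and the ranges of Nr1d2 and Per1 met at 35.8 CPM per kb. The ratio of the RPF level to the RNA level, a relative measure of translation, had its highest means in Nr1d2 (2.48, range 2.05 to 2.89), Cry1 (2.24, 1.85 to 2.56) and Nr1d1 (2.04, 1.85 to 2.19). These ranges overlapped each other and that of Per2 (1.52 to 2.16). The ratio was lowest for Per3 (0.713, range 0.578 to 0.893), which had 34 to 44 RPF counts in each WT vehicle library. The median ratio of all genes was 2.28, and Per3 stood at the 7.94th percentile.

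**Figure D1:**
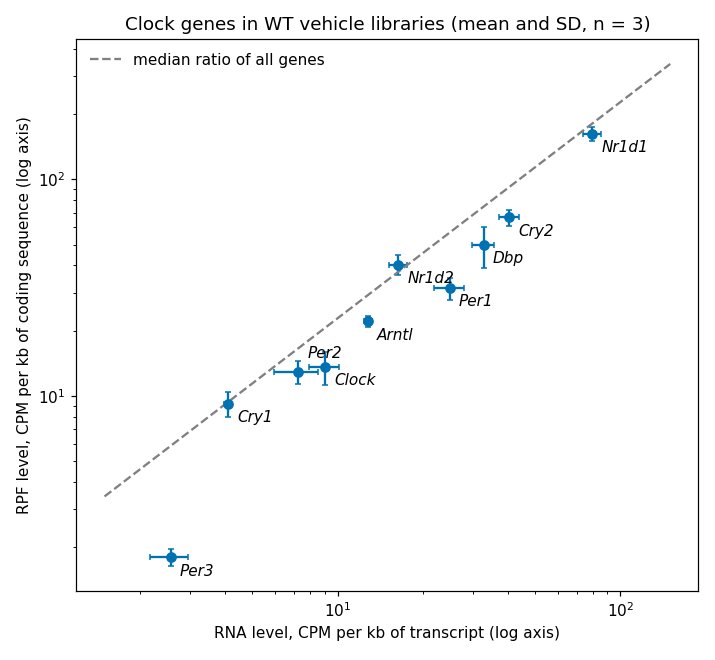
RNA level (x axis, CPM per kb of transcript, log scale) against RPF level (y axis, CPM per kb of coding sequence, log scale) of the 10 clock genes in WT vehicle slices, with means and SD over 3 libraries. Nr1d1 stands at the upper right with 79.6 and 162 CPM per kb, and Per3 at the lower left with 2.57 and 1.79.

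Over the 12 RNA libraries none of the clock genes varied by more than 1.57-fold. The ratio of the highest to the lowest library was 1.16 for Cry2, 1.2 for Arntl, 1.22 for Nr1d1, 1.23 for Nr1d2, 1.24 for Per1, 1.28 for Clock, 1.39 for Cry1, 1.41 for Dbp, 1.47 for Per2 and 1.57 for Per3. In RPFs the ratio ran from 1.22 for Nr1d1 to 1.71 for Cry1, which with Per3 had the fewest RPF reads. The median SD of log2 CPM was 0.0981 over the 10 genes and 0.138 over all genes tested in RNA, and 0.146 against 0.169 in RPFs.

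In RNA the smallest SDs of log2 CPM were those of Cry2 (0.0719) and Nr1d1 (0.0774), followed by the activators Arntl (0.0873) and Clock (0.0879). Arntl RNA, which peaks in opposite phase to Dbp and Per transcripts in most tissues, was at 37.6, 35.7 and 38 CPM in WT vehicle replicates 1, 2 and 3, at 39.6, 37.2 and 39.2 in WT DHPG, at 42.4, 37.1 and 41.4 in Tsc2+/- vehicle and at 37.3, 43 and 36.5 in Tsc2+/- DHPG. The 4 groups overlapped, as did the 3 replicate numbers. Clock RNA, for the partner of Arntl in the dimer, was at 99.7, 86.9 and 78 CPM in WT vehicle and between 79.5 and 88.7 in the other 9 libraries. Its highest and lowest values thus both fell in the same group.

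Dbp RNA, the output usually described as among the most strongly cycling transcripts of the clock, was at 54, 60.7 and 51 CPM in WT vehicle, at 52.9, 51.9 and 51.7 in WT DHPG, at 49.1, 46.3 and 43.8 in Tsc2+/- vehicle and at 56.7, 43 and 52.6 in Tsc2+/- DHPG. Tsc2+/- vehicle libraries all lay below WT vehicle libraries, whereas the genotypes overlapped after DHPG. Nr1d1 RNA was at 202, 232 and 226 CPM in WT vehicle, at 246, 229 and 242 in WT DHPG, at 228, 215 and 230 in Tsc2+/- vehicle and at 225, 215 and 234 in Tsc2+/- DHPG. Its lowest library was WT vehicle replicate 1 and its highest WT DHPG replicate 1, so both ends came from the same genotype and number. Nr1d2 RNA lay between 65.8 and 80.9 CPM, with both ends in WT. Per3 RNA ran from 12 CPM in a Tsc2+/- DHPG library to 18.8 in a WT DHPG library, both of number 2, and Cry1 RNA from 10.8 to 15 CPM, with both ends in Tsc2+/-.

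**Figure D2:**
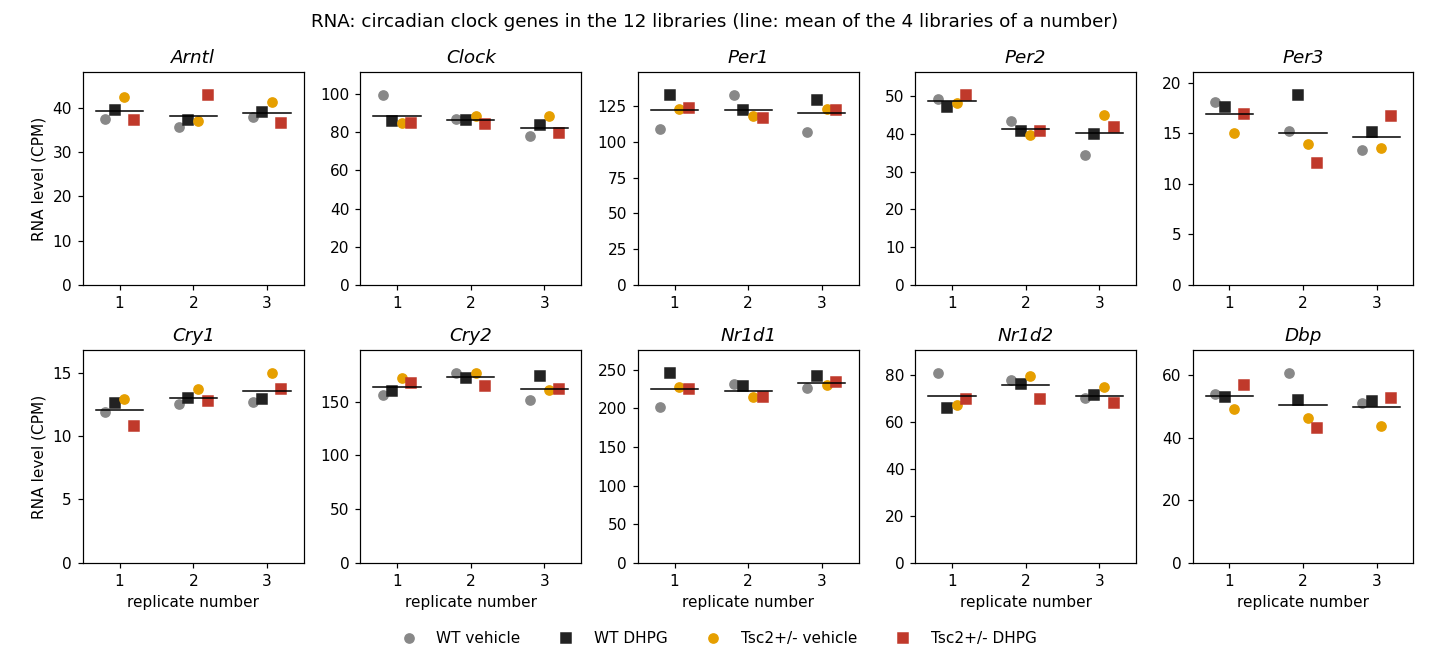
RNA level (y axis, CPM, from 0) of each clock gene in all 12 libraries by replicate number (x axis), with 1 point for each of the 4 groups and a bar at the mean of the number. Per2 is the gene in which the 4 libraries of number 1 (47.2 to 50.4 CPM) all lie above the other 8, and Arntl lies at 35.7 to 43 CPM throughout.

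Between replicate numbers, 1 of the 10 genes differed in RNA, Per2, a repressor of the loop that is itself driven by the Arntl and Clock dimer. Per2 RNA was at 49.3, 47.2, 48.2 and 50.4 CPM in the libraries of number 1 (WT vehicle, WT DHPG, Tsc2+/- vehicle and Tsc2+/- DHPG), at 43.5, 40.9, 39.8 and 40.7 in those of number 2 and at 34.4, 39.9, 45 and 41.8 in those of number 3. All 4 libraries of number 1 lay above all others, with means of 48.8 ± 1.39, 41.2 ± 1.59 and 40.3 ± 4.47 CPM (SD, n = 4). The log2 difference from number 1 was -0.28 ± 0.071 (SE) for number 3, so that Per2 fell by 17.5%, and the edgeR quasi-likelihood test gave an adjusted p of 0.0295. For number 2 it was -0.24 ± 0.071, with an adjusted p of 0.193 in edgeR, and numbers 2 and 3 differed by -0.04. The joint test over the 3 numbers gave an adjusted p of 0.0426 (edgeR).

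These counts stand against a background of called genes, where called means an adjusted p under 0.1. In RNA, 0.386% of all tested genes were called between numbers 1 and 2, 2.63% between 1 and 3, 0.971% between 2 and 3 and 2.54% in the joint test, against 0, 1, 0 and 1 of the 10 clock genes. At an unadjusted p under 0.05 the clock genes counted 1, 1, 0 and 1, against 7.94%, 12.8%, 9.49% and 12.0% of all genes. DESeq2 called the same numbers of clock genes as edgeR. The Per2 call for number 3 was lost without Tsc2+/- DHPG replicate 1 (log2 -0.267, adjusted p = 0.111 in edgeR), without WT vehicle replicate 1 (-0.249, 0.142) or without WT vehicle replicate 3 (-0.19, 0.212), and the joint count was 0 without replicate 1 of WT vehicle, WT DHPG or Tsc2+/- DHPG. Libraries of number 1 lay wholly above the others in 0.524% of all genes, with Per2 as the only clock gene, and wholly below them in 0.71% of all genes, with no clock gene.

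None of the other genes of the loop passed the test between numbers in RNA. From number 1 to number 3, the log2 differences in RNA were -0.02 for Per1, -0.20 for Per3, -0.02 for Arntl, -0.10 for Clock, 0.18 for Cry1, -0.01 for Cry2, 0.05 for Nr1d1, 0.01 for Nr1d2 and -0.10 for Dbp. For Per1 the 95% interval of this difference was -0.14 to 0.09, for Nr1d1 -0.05 to 0.15, for Arntl -0.16 to 0.13 and for Dbp -0.24 to 0.04. All 30 intervals between replicate numbers in RNA lay within 0.5 log2 units of 0, the farthest bound being 0.421 for Per2, and 2 of the 30 excluded 0. The median difference over the 10 genes was -0.02, and over all genes it was -0.003.

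In RPFs Per1 was the clock gene that passed the test between replicate numbers. Per1 RPFs were at 136, 124, 126 and 129 CPM in the libraries of number 1, at 111, 117, 120 and 99.8 in those of number 2 and at 113, 107, 102 and 99.8 in those of number 3, in the order WT vehicle, WT DHPG, Tsc2+/- vehicle and Tsc2+/- DHPG. Number 1 lay above all other libraries. The log2 difference from number 1 was -0.20 ± 0.062 (SE) for number 2, where Per1 fell by 13.1% with an adjusted p of 0.0976 (edgeR), and -0.29 ± 0.063 for number 3, where it fell by 18.1% with an adjusted p of 0.0092 (edgeR). Number 3 minus number 2 was -0.09, with an adjusted p of 0.704 in edgeR, and the joint test gave 0.0164.

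Per1 RNA of the same lysates overlapped between the numbers, at 109, 133, 123 and 124 CPM in number 1, at 133, 122, 118 and 117 in number 2 and at 107, 129, 123 and 122 in number 3. Translation efficiency (TE), tested as the difference between the RPF and the RNA change in a single model, gave log2 -0.27 ± 0.088 (SE) for Per1 from number 1 to 3, with an adjusted p of 0.204 in edgeR. The change in TE therefore did not pass, and the RPF and RNA changes of Per1 were not shown to differ. Halving the even RPF counts of numbers 2 and 3 gave a Per1 difference of -0.29 with an adjusted p of 0.00709 (edgeR). Scaling to library size cancels a common factor, so halving keeps log2 differences nearly fixed. It cannot decide whether the way the counts were made gave the difference. The Per2 RPF difference from number 1 was -0.23 for number 2 and -0.22 for number 3, with adjusted p of 0.157 and 0.167 in edgeR, lower in 4 of 4 contrasts within a group for both, and their ranges overlapped. With the counts halved the joint test called both Per1 and Per2, and over all genes it called 700 in place of 599. Whether Per1 and Per2 differ in their RPF change was not tested.

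**Figure D3:**
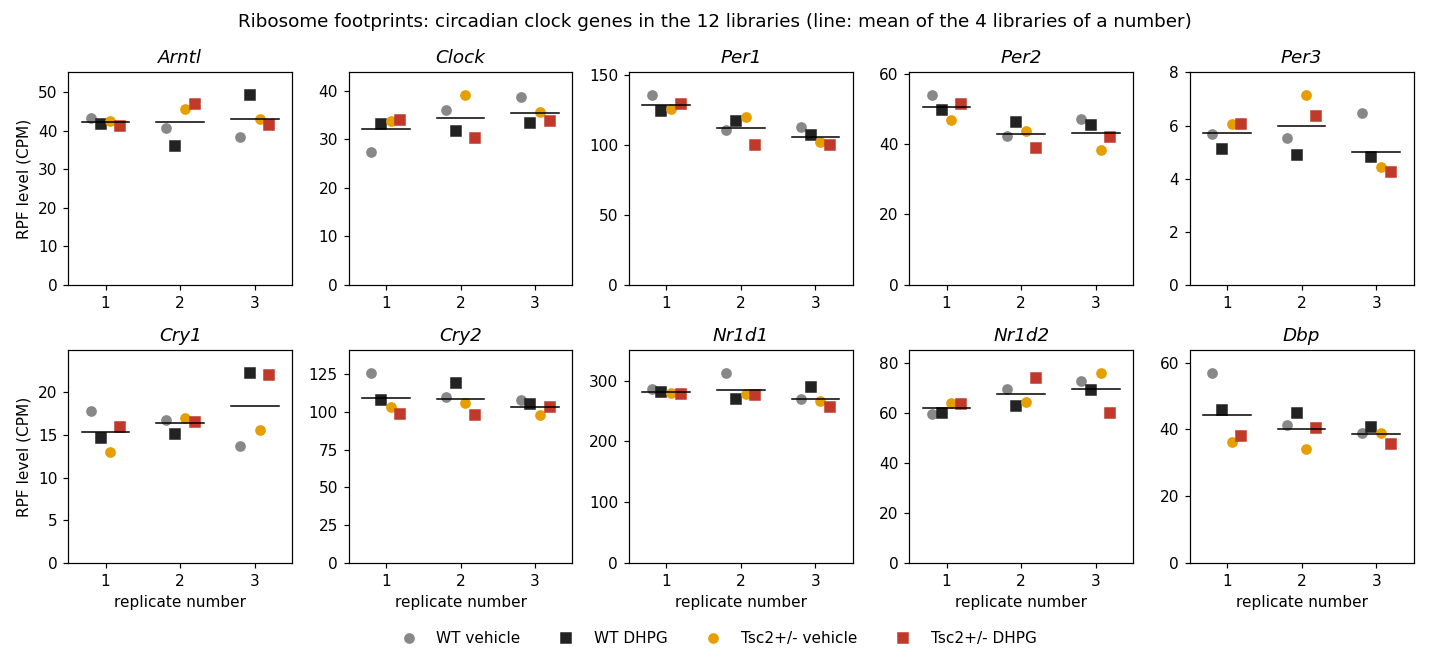
RPF level (y axis, CPM, from 0) of each clock gene in all 12 libraries by replicate number (x axis), with 1 point for each of the 4 groups and a bar at the mean of the number. Per1 libraries of number 1 lie at 124 to 136 CPM, above the other 8, and Per2 libraries of number 1 (46.9 to 54 CPM) overlap the others.

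In RPFs 2.99% of all genes were called between numbers 1 and 2, 3.61% between 1 and 3, 0.66% between 2 and 3 and 4.65% in the joint test. The clock genes called numbered 1, 1, 0 and 1, each time Per1, whereas at an unadjusted p under 0.05 they numbered 2, 4, 0 and 2. Of all genes, 13.8%, 15.1%, 9.96% and 16.3% had an unadjusted p under 0.05 in these comparisons. The call for number 2 was lost without any of 10 of the 12 libraries (all but replicate 3 of WT vehicle and of Tsc2+/- vehicle). The joint call was lost without Tsc2+/- DHPG replicate 1. By contrast, the call for number 3 held in 17 of 17 alternatives (-0.324 to -0.246), among them the halved counts, which keep log2 differences nearly fixed. The further clock genes at an unadjusted p under 0.05 were Per2, Cry1 (0.28 for number 3, adjusted p = 0.323 in edgeR) and Nr1d2 (0.16, 0.311). RPF libraries of number 1 lay wholly above the others in 1.14% of all genes and wholly below them in 0.878%, with Per1 and no clock gene respectively. Of the 30 RPF intervals between numbers, 27 lay within 0.5 log2 units of 0 and the farthest bound was 0.704, for Per3. TE was called between numbers in 0.149%, 0.391% and 0.0313% of all genes (2 against 1, 3 against 1 and 3 against 2) and in 0 clock genes by edgeR. At an unadjusted p under 0.05 the clock genes numbered 1, 2 and 0 in TE, against 9.36%, 11.7% and 5.75% of all genes. DESeq2 also called 0 clock genes in TE, but gave no adjusted p for 8, 2 and 0 of them.

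**Figure D4:**
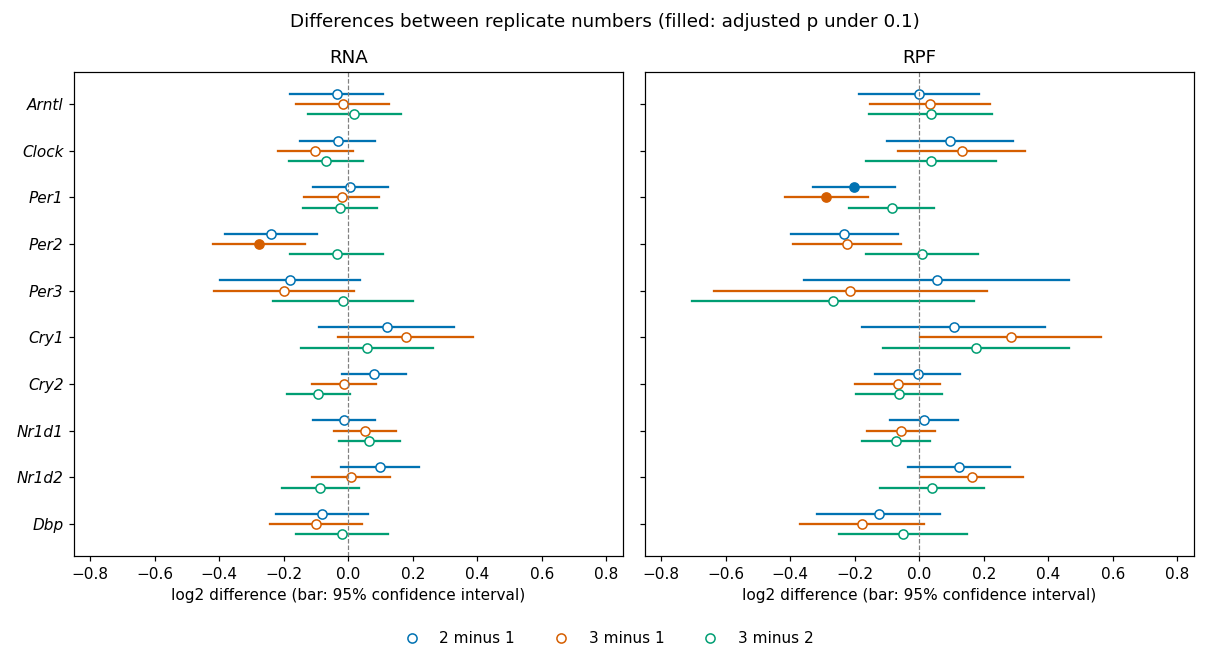
Log2 differences between replicate numbers (x axis) for each clock gene (y axis) in RNA and RPFs, with 95% intervals, and filled symbols for an adjusted p under 0.1. In RNA the filled symbol is Per2 for number 3 against 1 (-0.28), and in RPFs it is Per1 for 2 against 1 (-0.20) and for 3 against 1 (-0.29).

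Other features of the libraries moved with replicate number. Microglial markers were lower in number 3, where their summed RNA lay at 167 to 195 CPM against 206 to 218 in number 1 and 210 to 227 in number 2, and 3 of the 5 were called in the joint test. In RPFs the sum was 213 to 252, 285 to 372 and 300 to 330 CPM in numbers 3, 1 and 2, with 4 of 5 called. Of all genes, the joint test called 2.54% in RNA and 4.65% in RPFs. Summed CA1 markers in RPFs were 812 to 988 CPM in number 1, 702 to 770 in number 2 and 787 to 837 in number 3, with 3 of 5 called (Fibcd1, Pou3f1 and Wfs1). Their RNA sums overlapped, at 1630 to 1800, 1670 to 1700 and 1630 to 1740 CPM in numbers 1, 2 and 3. Astrocyte markers in RPFs lay at 2340 to 2620, 2340 to 2550 and 2000 to 2330 CPM in numbers 1, 2 and 3, with 3 of 5 called. Astrocyte RNA sums overlapped, at 1880 to 1980, 1920 to 2060 and 1730 to 1940 CPM. No marker of these lists was at 0 in every library. In the joint tests of the other lists, oligodendrocyte markers were called in 2 of 5 in RNA and 4 of 5 in RPFs, neuronal markers in 0 and 2 of 5, endothelial markers in 0 and 1 of 5, dentate markers in 0 of 5, CA3 markers in 0 of 4 and the choroid plexus marker tested in 0 of 1. Their part in the Per2 and Per1 differences was not tested.

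Immediate early genes, which like Per1 and Per2 respond to CREB, also moved with replicate number in RNA. Their RNA sums lay at 1190 to 1300, 1150 to 1260 and 1260 to 1360 CPM in numbers 1, 2 and 3, so that number 1 overlapped each of the others. Their RPF sums overlapped too, at 1240 to 1450, 1220 to 1300 and 1270 to 1310 CPM. In RNA 7 of 12 were called in the joint test, against 2.54% of all genes. From number 1 to 3 these 7 were 6 higher and 1 lower. Fos was higher by 0.34 (adjusted p = 0.000148 in edgeR) and Npas4 lower by -0.50 on the log2 scale (adjusted p = 0.00627 in edgeR). Of 11 glucocorticoid-responsive genes, 3 were higher in number 3 than in number 1, the cell-cycle inhibitor Cdkn1a by 0.45 (adjusted p = 0.0076 in edgeR) and the metallothioneins Mt1 and Mt2. Of 8 temperature-sensitive genes, 0 were called in RNA and 1 in RPFs, Rbm3, which encodes a cold-inducible RNA-binding protein, by 0.21 for number 2 (adjusted p = 0.0826 in edgeR). The part of these programmes in the Per differences was not tested.

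A further 19 genes around the core loop (Npas2, the paralogue of Clock, Arntl2, the ROR receptors, Bhlhe40 and Bhlhe41, Nfil3, Tef, Hlf, Ciart, Usp2, the casein kinases Csnk1d and Csnk1e, Fbxl21, Btrc, Fbxw11, Timeless and Nono) were tested in the same models. In RNA 0 of 19 were called in any comparison between numbers, or between genotypes or treatments when averaged. In RPFs 17 could be tested and 1 was called, Btrc, a ubiquitin ligase subunit that targets PER proteins. Its difference was 0.23 ± 0.062 (SE) for number 3 against 1, with an adjusted p of 0.0483 (edgeR). Of all genes, 3.61% were called in that RPF comparison. The median log2 difference of the 19 in RNA from number 1 to 3 was -0.02, against -0.003 for all genes.

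Between the study's groups none of the 10 clock genes passed the test in RNA, RPFs or TE. Within RNA and within RPFs the largest difference by genotype was in Dbp, which was lower in Tsc2+/- vehicle slices by -0.26 ± 0.081 (SE) on the log2 scale in RNA, a change of -16.3%. This had an unadjusted p of 0.00328, but an adjusted p of 0.772 over all genes in edgeR. After DHPG the Dbp difference between genotypes was -0.04, and the interaction of genotype and treatment was 0.22 with an adjusted p of 0.999 (edgeR). Dbp RNA was lower in Tsc2+/- in 3 of 3 contrasts of equal replicate number in vehicle and in 1 of 3 after DHPG. Without WT vehicle replicate 2, its highest library, the vehicle difference was -0.141.

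Dbp RPFs were at 57, 41.4 and 38.8 CPM in WT vehicle, at 45.7, 45 and 40.8 in WT DHPG, at 36.1, 34.2 and 38.9 in Tsc2+/- vehicle and at 38, 40.4 and 35.6 in Tsc2+/- DHPG. The highest library, WT vehicle replicate 1, stood apart from the rest, and the vehicle groups met at 38.8 and 38.9 CPM. The genotype difference averaged over treatments was -0.27 ± 0.077 (SE), with an unadjusted p of 0.00138 and an adjusted p of 0.516 in edgeR, and it was lower in 5 of 6 contrasts of equal number. In vehicle alone it was -0.33, and -0.153 without WT vehicle replicate 1.

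Cry2, a repressor that binds the Arntl and Clock dimer, showed RPFs at 126, 110 and 108 CPM in WT vehicle, at 108, 119 and 105 in WT DHPG, at 103, 106 and 98.1 in Tsc2+/- vehicle and at 98.9, 98 and 103 in Tsc2+/- DHPG. Every Tsc2+/- vehicle library lay below the WT vehicle libraries. Averaged over treatments the genotype difference was -0.15 ± 0.053 (SE), lower in 6 of 6 contrasts of equal number, with an unadjusted p of 0.00668 and an adjusted p of 0.573 in edgeR. Cry2 RNA of the same lysates was at 156, 177 and 152 CPM in WT vehicle and at 172, 177 and 161 in Tsc2+/- vehicle, and TE in vehicle differed by -0.23 with an adjusted p of 0.854 in edgeR. Its paralogue Cry1 had RNA at 11.9, 12.5 and 12.7 CPM in WT vehicle and at 12.9, 13.7 and 15 in Tsc2+/- vehicle, a log2 difference of 0.17 with an adjusted p of 0.991 in edgeR.

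As a background to these 3 genes, Tsc2+/- lay wholly below WT in vehicle in 4.19% of all genes in RNA and in 4.08% in RPFs, and wholly above WT in 4.01% in RNA and 4.21% in RPFs. The clock genes in these counts were Dbp, Cry2, Cry1 and none, respectively. By genotype, 0.0896% of all genes were called in RNA in vehicle, 0.0482% after DHPG and 0.227% when averaged, and 0.0233%, 0.0155% and 0.0621% in RPFs. Of all genes, 4.90%, 4.64% and 6.12% had an unadjusted p under 0.05 in RNA and 6.55%, 4.13% and 6.63% in RPFs. The clock genes at that cutoff numbered 1, 0 and 1 in RNA (Dbp) and 2, 0 and 2 in RPFs (Dbp and Cry2). DESeq2 called 0 in each, but gave no adjusted p for 3 of them in RPFs in vehicle (Per3, Clock and Cry1).

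Of the markers of dentate granule cells, 1 differed by genotype. Their summed RNA lay at 55.7 to 85.6 CPM in WT vehicle and at 51.7 to 62.4 in Tsc2+/- vehicle, with RPF sums of 50.6 to 84.7 and 58.3 to 61.8 CPM, so that the groups overlapped in both assays. Of the 5, Prox1, the defining transcription factor of these cells, was called at -0.41 ± 0.085 (SE) averaged over treatments with an adjusted p of 0.0161 (edgeR). Summed RNA of blood transcripts lay at 20.9 to 26.8 CPM in WT vehicle and at 2.59 to 16.5 in Tsc2+/- vehicle, with Hbb-bt as the 1 called of 4 tested. Over both treatments these RNA sums overlapped, at 16.3 to 35.2 CPM in WT and 2.59 to 17.7 in Tsc2+/-. The RPF sums in vehicle overlapped too, at 0.38 to 1.45 CPM in WT and 0 to 0.675 in Tsc2+/-. No dentate marker was at 0 in every library. The part of these cells in the Dbp values was not tested.

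After DHPG for 5 min no clock gene passed the test in RNA or RPFs. In WT slices Per1 RNA went from 109, 133 and 107 CPM in vehicle to 133, 122 and 129 after DHPG, a log2 difference of 0.14 with an unadjusted p of 0.0468 and an adjusted p of 0.768 (edgeR). The groups overlapped, since WT vehicle replicate 2 was as high as the highest DHPG library. Nr1d1 RNA differed by 0.12, with an unadjusted p of 0.0405 and an adjusted p of 0.767 (edgeR), and these were the 2 clock genes under 0.05 in WT. Of all genes, 6.45% had an unadjusted p under 0.05 in that RNA comparison. In Tsc2+/- slices the differences were -0.01 for Per1 and 0.002 for Nr1d1, and the interaction had an adjusted p of 0.999 for both in edgeR. Without WT vehicle replicate 2 the Per1 difference in WT was 0.269 and passed, with an adjusted p of 0.061 (edgeR), whereas without WT vehicle replicate 1 it was 0.0752.

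Over all genes, the DHPG effect was called in RNA in 0% in WT, 0% in Tsc2+/- and 0.0207% when averaged, and in RPFs in 0.0311%, 0% and 0.0311%. The interaction was called in 0% of genes in both assays. None of the 10 clock genes was called in these comparisons by edgeR or by DESeq2, although the latter gave no adjusted p for 9 of them in the averaged RNA comparison, for 3 in RPFs in WT and for 2 in averaged RPFs, and apart from the 2 in WT RNA none had an unadjusted p under 0.05. TE was called by genotype in 0% of genes in vehicle and 0% after DHPG, and by DHPG in 0.0469% in WT and 0% in Tsc2+/-. The clock genes at an unadjusted p under 0.05 in TE were Cry2 by genotype in vehicle and Cry1 by DHPG in Tsc2+/- (0.42, adjusted p = 0.999 in edgeR). Of all genes, 5.67% and 3.65% had an unadjusted p under 0.05 in those comparisons, in that order.

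The intervals give the size of the differences that these libraries allow. All 40 RNA intervals for genotype and treatment lay within 0.5 log2 units of 0, with the farthest bound at 0.429 for Per3, and 3 of them excluded 0. In RPFs 35 of 40 lay within 0.5 and all within 1, with the farthest bound at 0.725 for Per3, whose RPFs were at 4.25 to 7.16 CPM.

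**Figure D5:**
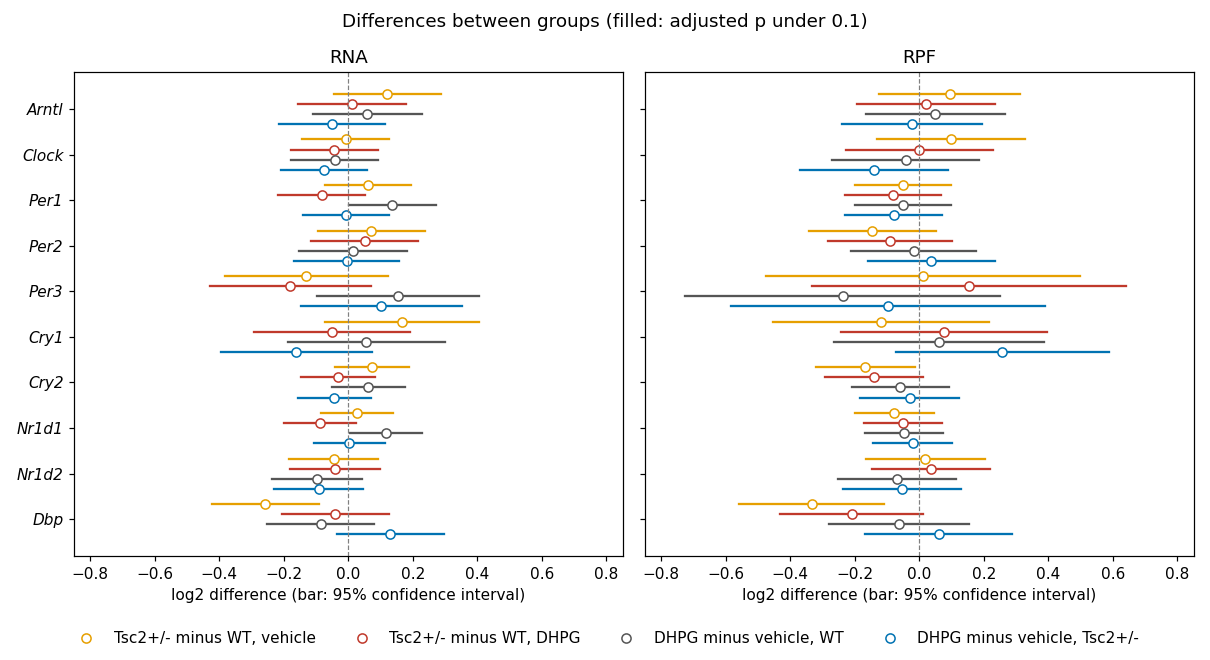
Log2 differences between groups (x axis) for each clock gene (y axis) in RNA and RPFs, by genotype in vehicle and in DHPG and by DHPG in WT and in Tsc2+/-, with 95% intervals. No symbol is filled, since no adjusted p was under 0.1, and Dbp in vehicle lies farthest to the left in both assays (-0.26 in RNA and -0.33 in RPFs).

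The share of each gene's variation over the 12 RNA libraries that went with replicate number was 66.4% for Per2, 42.4% for Cry1 and 35.5% for Cry2, and at most 26.5% (Clock) for the other 7. The share that went with the 4 groups was 42.7% for Dbp and 36.9% for Nr1d1. The medians over the 10 genes were 22.8% and 29%, against 18.6% and 24% over all genes. In RPFs Per1 had 71.9% and Per2 57.8% with replicate number, and Cry2 had 57.8% with group. These shares are a description and carry no test.

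Over the 12 RNA libraries, which share groups and numbers, Pearson's r for Arntl was -0.728 with Dbp, -0.512 with Per3 and -0.44 with Nr1d2. With Per1 it was -0.0277, with Per2 0.132 and with Nr1d1 -0.00148. In RPFs r for Arntl was -0.125 with Dbp, 0.122 with Per3 and 0.206 with Nr1d2. Between Per1 and Nr1d1 it was 0.752 in RNA and 0.309 in RPFs, and between Per1 and Per2 0.333 in RNA and 0.892 in RPFs. These pairs were chosen after their values were seen. Between RNA and RPFs of the same 12 lysates r ran from -0.534 for Clock to 0.431 for Arntl. Among 14515 other genes, the RNA pattern most like that of Dbp was shown by Osbpl5 (r = 0.876), Gprasp1 (0.853), the endothelial gene Cldn5 (0.826), Acvrl1 (0.825) and Zfp27 (0.823). That of Arntl was shown by Mtfmt (0.931), 2210011C24Rik (0.857), Enpp2 (0.856), Scg2 (0.844) and Atp6v1c1 (0.841). These are the extremes of many comparisons over 12 libraries.

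Some reads of these genes could belong to neighbours on the other strand, because the strand setting of the counting was not given in the sources used here. On GRCm38.p6, exons of Nr1d1 (chr11:98767932-98775377) share 471 bases with Thra, those of Dbp (chr7:45705100-45710203) 539 with Sphk2, those of Per2 (chr1:91415977-91459351) 550 with Gm35591 and those of Cry2 (chr2:92403646-92434085) 149 with D930015M05Rik. Per1 lies at chr11:69095108-69109965, Per3 at chr4:150997018-151044707, Arntl at chr7:113178471-113314126, Clock at chr5:76209868-76305603, Cry1 at chr10:85131700-85185054 and Nr1d2 at chr14:18204056-18239106. None of these 6 shared exon bases with a gene on the other strand. The counts were made over exons of annotated transcripts in RNA and over coding exons in RPFs.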

How the data were processed

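RNA-seq and ribosome profiling were measured in 24 libraries, 12 of each, from the same lysates. The authors removed adapters and rRNA, mapped reads to mm10 with TopHat2, kept unique reads without UMI duplicates and deposited RSEM expected counts, over whole RefSeq transcripts for RNA and over coding sequence without its ends for RPFs. The deposited values were whole numbers and were used as they stood. The study's own batch correction and DESeq2 were run as alternatives.

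Groups and replicate numbers came from the labels, and the number was treated as the batch, since the study made its 3 replicates in separate batches, although no label says which number is which. Genes were filtered with a minimum count of 10 and scaled by TMM, and group and replicate number were fitted with the quasi-likelihood F test of edgeR 4.0.16 (R 4.3.3) over the 12 libraries of an assay. Each replicate number compares 4 libraries with 4. TE was the interaction of assay and condition over all 24 libraries (12785 genes). P-values were adjusted over all genes tested by Benjamini-Hochberg and called under 0.1, intervals are 95%, and log2 CPM for the shares of variation and the correlations used a prior count of 2. CPM used TMM library sizes. Levels per length used the longest curated RefSeq transcript, or its coding sequence less 60 nt. Fits were tested on simulated data. Totals of 14801679 to 24067838 (RNA) and 5296006 to 13613673 (RPF) set the precision.

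Named genes were the 10 clock genes, genes of other lists called in the joint RNA test of replicate numbers (up to 8 of the wider clock list and the 2 with the largest change of each other programme) and, for likeness, the 5 genes with the highest r. Btrc, Rbm3, Mt1, Mt2, Prox1, Hbb-bt and the called CA1 markers were named after their values were seen. The clock genes, the lists and the cell type markers were chosen with earlier results of these data known. A gene of the wider clock list is not reported here. Alternatives were DESeq2 1.42.0, ComBat (sva 3.50.0) with DESeq2, relative log expression scaling, no filter, no replicate block, only the groups compared, halved RPF counts, an adjusted p under 0.05, a prior count of 0.5 and leaving out each library. The use of the shortest transcript for levels was chosen after seeing the data.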

Additional observations from a re-analysis of the deposited data

How the results depend on the processing

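Of 838 alternative values of 69 results, 792 kept their direction and their side of the threshold, or stayed within the spread between replicates or within 1.5 times the count, and 0 reversed. For the median shares of variation the limit was a change under 0.5 percentage points. The count of clock genes called moved in 6 of 29 comparisons. With the low-count filter off, 1 clock gene (Per2) was called in RNA between replicate numbers 2 and 1 in place of 0. With RPF counts of numbers 2 and 3 halved, 2 (Per1 and Per2) were called in the joint RPF test in place of 1, and 700 in place of 599 over all genes. Between numbers 2 and 1 in RPFs, 0 in place of 1 were called at an adjusted p under 0.05 and under relative log expression scaling. Leaving out 1 library in turn moved the count of clock genes called between 0 and 1 in RNA for the joint test, for numbers 2 against 1, for 3 against 1 and for DHPG in WT, and in RPFs for the joint test and for 2 against 1. The causes were not tested beyond the loss of a library. The Per2 difference in RNA between numbers 3 and 1 ranged from -0.348 to -0.19, with adjusted p from 0.00687 to 0.212 in edgeR or DESeq2. Levels per length kept within the spread in 37 of 40 alternatives, and the 3 others were Arntl RNA at 13.3 over all libraries and at 14.2 CPM per kb with its shortest transcript, and Cry1 RNA at 4.26 over all libraries. A prior count of 0.5 left the median shares of variation of the clock genes within the limit of 0.5 percentage points. Per3 and Cry1 had the fewest RPF reads of the clock genes.

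The replicate numbers were in the model as a block. Libraries of the same number and different group correlated in their deviations from the group means by 0.0228 to 0.143 in RNA and by 0.033 to 0.263 in RPFs, over 0.1 in 5 and 9 of 18 pairs, and 12 of 12 libraries in each assay correlated best with a library of their own number, a hint from the data, since the study names batches but not which number belongs to which. Without the replicate block, 0 clock genes were called in any comparison of groups, as with it. Over all genes the fit without the block called 16 in place of 33 by genotype in RNA when averaged, 6 in place of 13 in vehicle and 4 in place of 7 after DHPG, 1 in place of 3 for averaged DHPG in RNA, and in RPFs 4 in place of 8 by averaged genotype, 1 in place of 4 for averaged DHPG and 2 in place of 4 for DHPG in WT. In TE for DHPG in WT it called 1 in place of 6.

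Counts over all genes moved by more than 1.5 times under other settings too. DESeq2 called 26 in place of 3 for averaged DHPG in RNA, and in RPFs 15 and 14 in place of 4 for DHPG averaged and in WT, 10 in place of 3 by genotype in vehicle and 302 in place of 465 between numbers 3 and 1. In TE it called 101 in place of 6 for DHPG in WT, 67 in place of 19 between numbers 2 and 1 and 200 in place of 50 between 3 and 1. With no filter, RNA counts were 138 in place of 56 between numbers 2 and 1, 224 in place of 141 between 3 and 2, 579 in place of 368 in the joint test, 63 in place of 33 by averaged genotype, 17 in place of 7 by genotype after DHPG and 6 in place of 0 for DHPG in WT, and in RPFs 21 in place of 4 for DHPG in WT. With only the groups compared, RPFs gave 37 in place of 4 for DHPG in WT, and RNA 14 in place of 7 by genotype after DHPG. Halved RPF counts gave 9 in place of 4 for DHPG in WT and, in TE, 23 in place of 6, and ComBat gave 7 in place of 13 by genotype in RNA in vehicle.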
